A study of Mus musculus with 3 samples.

Results

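Of the 27 cell types whose share was estimated in spatial RNA sequencing of regenerating mouse muscle, smooth muscle cells and tenocytes are the 2 that are neither myogenic, endothelial, neural, immune nor fibro/adipogenic progenitors (FAPs). Spots were members if the theta value of smooth muscle or of tenocytes was at least 0.01. Theta is the estimated fraction of a spot's transcripts that came from a cell type, and is not a fraction of cells, so fewer cells of a type and less RNA per cell cannot be told apart. By this rule 921 of 2758 spots were members, with 274 of 859 at 2 days post injury (dpi), then 303 of 933 at 5 dpi, and last 344 of 966 at 7 dpi. Of all members, 313 held smooth muscle only, 478 held tenocytes only and 130 held both, and these are named smooth muscle spots, tenocyte spots and shared spots below. The other 1837 spots, with both thetas under 0.01, are named remaining spots.

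Smooth muscle cells form the contractile wall of arteries, arterioles and veins, outside the endothelial lining, and set the width of the vessel. Tenocytes are the fibroblasts of tendon and of the connective tissue where muscle attaches to it, and they lay down collagen. FAPs are the stromal progenitors that lie between myofibers and can become fibroblasts or fat cells. Arteries, veins and nerves run side by side in the connective tissue between bundles of myofibers.

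The study took 1 section of tibialis anterior, a muscle of the shin, at each of 2, 5 and 7 dpi. All sections came from female C57BL6/J mice aged 5 months whose muscle was injected with notexin, a phospholipase from snake venom that breaks down myofibers, and no uninjured section was analysed here. Each array spot pools the RNA of a small region of tissue that can hold several cells or part of one. Time point, animal and array area cannot be told apart, so values at different times are set side by side without a test, and intervals on shares of spots are exact Clopper-Pearson 95% intervals that cover the counting of spots only.

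The sections held 5710385, 10803761 and 14734531 unique molecular identifiers (UMIs) at 2, 5 and 7 dpi, with medians of 5786, 11221 and 15135 UMIs per spot. The values per spot name no genes, so the type labels could not be checked against marker genes. Because the rule used the thetas of smooth muscle and tenocytes, those values are given as a description. The other 25 thetas of a spot share one sum with them. Only the UMI count, the number of genes and the percentages of mitochondrial, ribosomal protein and hemoglobin transcripts were measured apart from theta.

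Smooth muscle was a small part of most spots and a large part of very few. At 2, 5 and 7 dpi, the order kept below, its mean theta was 0.00713, 0.00744 and 0.00863, while its median over spots was 0.00511, 0.00363 and 0.00403. The mean was thus highest at 7 dpi and the median at 2 dpi. The upper end of the distribution differed most between sections. The highest smooth muscle theta in a spot was 0.0747, 0.455 and 0.488, and the 99th percentile was 0.0332, 0.0646 and 0.101. Spots with a smooth muscle theta of at least 0.05 numbered 4, 12 and 22, and they held 4.18%, 28.1% and 33.2% of all smooth muscle theta of their section. Smooth muscle was the largest of the 27 thetas in 0, 4 and 2 spots.

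Tenocyte theta was concentrated in few spots in every section, and most of all at 2 dpi. The mean was 0.0119, 0.00970 and 0.0115, with medians of 0.00389, 0.00416 and 0.00439. The highest tenocyte theta was 0.445, 0.225 and 0.298. The 38, 27 and 46 spots with at least 0.05 held 50.1%, 29.4% and 41.5% of all tenocyte theta. In the 10% of spots with the highest values lay 64.2%, 51.4% and 56.4% of it. For smooth muscle the highest 10% held 32.1%, 52.3% and 53.6%. At 2 dpi smooth muscle was therefore spread over spots more evenly than tenocytes, and at 5 and 7 dpi both were about equally concentrated. Tenocytes were the largest theta in 1, 0 and 1 spots.

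**Figure D1:**
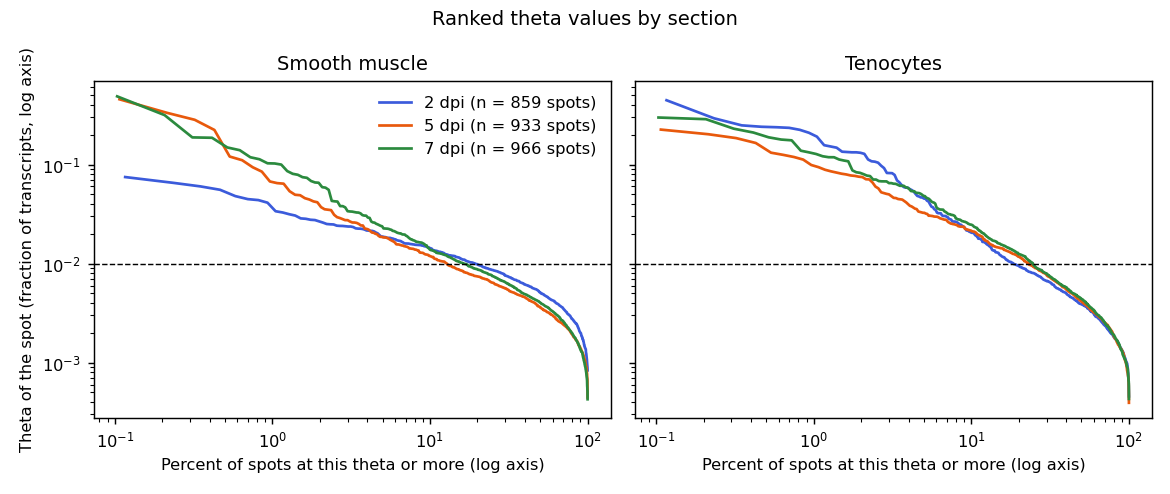
Theta of each spot (vertical, log axis) against the percent of spots of its section at that theta or more (horizontal, log axis), for smooth muscle (left) and tenocytes (right), with 1 line per section and the member minimum of 0.01 dashed. The smooth muscle line of 2 dpi ends at 0.0747 and those of 5 and 7 dpi reach 0.455 and 0.488, while the tenocyte line of 2 dpi reaches highest, to 0.445.

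The share of spots over the member minimum of 0.01 was highest at 2 dpi for smooth muscle and lowest at 2 dpi for tenocytes. For both types the order of the sections depended on the minimum. At a theta of 0.01 or more, smooth muscle was present in 19.3% of spots at 2 dpi (interval 16.7 to 22.1, 166 of 859). The share was 12.8% at 5 dpi (10.7 to 15.1, 119 of 933), and 7 dpi gave 16.4% (14.1 to 18.8, 158 of 966). At 0.02 the smooth muscle shares were 4.66%, 4.39% and 6.52%. At 0.05 they were 0.466% (0.127 to 1.19), 1.29% (0.666 to 2.24) and 2.28% (1.43 to 3.43), so that the section at 2 dpi held the fewest spots rich in smooth muscle and that at 7 dpi the most. Tenocytes were present at 0.01 in 18.4% (15.9 to 21.1), 22.8% (20.2 to 25.7) and 24.5% (21.8 to 27.4) of spots. At 0.02 the tenocyte shares were 10.4%, 10.7% and 12.0%, and at 0.05 they were 4.42%, 2.89% and 4.76%. Each share describes 1 section, and none of these differences was tested against the spread between animals.

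**Figure D2:**
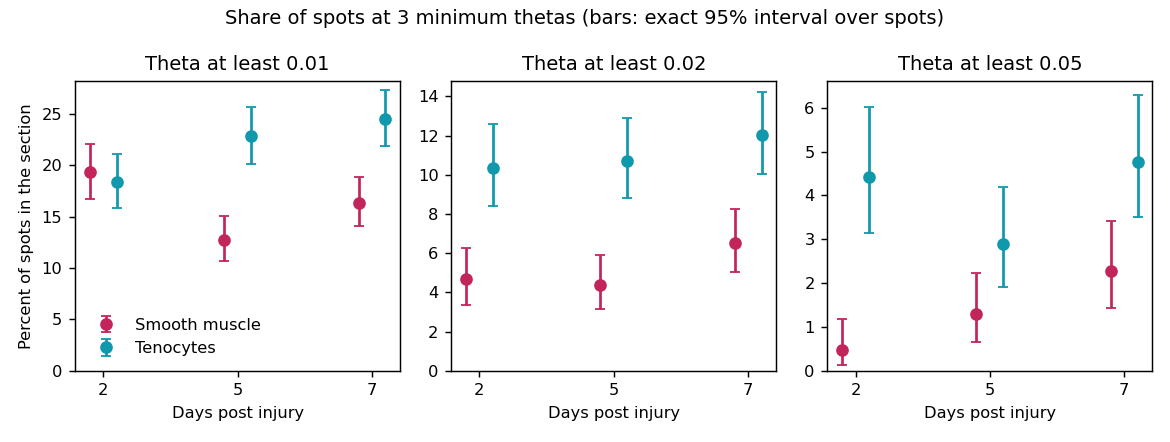
Percent of spots of each section (vertical) with smooth muscle or tenocytes at a theta of at least 0.01, 0.02 or 0.05 (panels), at 2, 5 and 7 days post injury (horizontal), with exact 95% intervals over spots, which leave out the spread between animals. At 0.01 smooth muscle is lowest at 5 dpi, with 12.8%, and at 0.05 it is lowest at 2 dpi, with 0.466%.

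Many members lay near the minimum. Taking the larger of both thetas of a spot, the fifth value inside the minimum was 0.0102, 0.0103 and 0.0102, and the highest outside it was 0.00998, 0.00993 and 0.00997. Members with neither theta at 0.02 or more numbered 153 of 274, 169 of 303 and 178 of 344, or 55.8%, 55.8% and 51.7%.

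Presence of both types went with low depth. Spots of a section were divided into 5 groups of equal size by UMI count. In the group with the fewest UMIs at 2 dpi (1003 to 2878 UMIs), smooth muscle was present in 37.2% (interval 30.0 to 44.9), and in the group with the most UMIs (10196 or more) in 14.5% (9.63 to 20.7). For tenocytes at 2 dpi those shares were 37.2% and 7.56% (4.09 to 12.6). At 7 dpi tenocytes were present in 50.0% of the shallowest group (42.8 to 57.2) and in 21.2% of the deepest (15.7 to 27.7), and smooth muscle in 28.4% (22.1 to 35.2) and 11.4% (7.28 to 16.7). At 5 dpi the tenocyte shares were 36.9% and 16.6%. Smooth muscle at 5 dpi had no such slope, with 12.8% in the shallowest group and 15.0% in the deepest. Over spots, Spearman's rho between theta and UMI count was -0.33, -0.15 and -0.26 for smooth muscle and -0.52, -0.35 and -0.34 for tenocytes at 2, 5 and 7 dpi. Since depth differed between sections, shares were also taken in spots with 5000 to 10000 UMIs (305, 255 and 163 spots). Smooth muscle was then present in 13.1%, 10.6% and 15.3%. Tenocytes were present in 12.8% (9.25 to 17.1), 27.1% (21.7 to 33.0) and 25.2% (18.7 to 32.5), so that the gap between 2 dpi and the later sections was wider at matched depth than over all spots.

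The number of spots with both types lay near or above that from independent placing, depending on the section and on how depth was treated. This overlap uses the thetas of the rule, so it is a description and was not tested. Both types were present in 50, 29 and 51 spots, against 30.5, 27.2 and 38.8 expected from the product of the shares. The ratios of observed to expected were 1.64, 1.07 and 1.32. Summed over the 5 UMI groups, the expected numbers were 38.7, 26.3 and 46.0 and the ratios 1.29, 1.10 and 1.11. In spots with 5000 to 10000 UMIs the ratios were 1.37, 1.64 and 1.59. The ratios at 5000 to 10000 UMIs rest on only 7, 12 and 10 spots with both types. Among spots with smooth muscle, 30.1% (23.3 to 37.7), 24.4% (17.0 to 33.1) and 32.3% (25.1 to 40.2) also held tenocytes. Among spots with tenocytes, 31.6%, 13.6% and 21.5% also held smooth muscle. No spot at 2 or 5 dpi and 3 spots at 7 dpi had both thetas at 0.05 or more.

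Of the spots with a smooth muscle theta of 0.05 or more, 1 of 4, 6 of 12 and 15 of 22 also held tenocytes at 0.01 or more. Over all spots that share was 18.4%, 22.8% and 24.5%. The 22 spots at 7 dpi were shallow, with a median of 7462.5 UMIs against 15217.5 in all other spots. Those at 2 and 5 dpi had 7820 against 5786 and 10112 against 11221. The very highest smooth muscle thetas at 5 and 7 dpi came with tenocytes over the minimum. At 5 dpi the 4 highest smooth muscle thetas were 0.455, 0.333, 0.283 and 0.223, and tenocyte theta in those spots was 0.0377, 0.0236, 0.0355 and 0.0445. At 7 dpi the 5 highest were 0.488, 0.315, 0.188, 0.186 and 0.149, and their tenocyte thetas were 0.0329, 0.0680, 0.0416, 0.0517 and 0.0338. These spots were all above the tenocyte minimum. The fifth spot at 5 dpi, at 0.120 smooth muscle, held 0.00143 tenocytes. At 2 dpi the 4 highest smooth muscle thetas were 0.0747 to 0.0556, with tenocyte thetas of 0.00430 to 0.0198. The reverse differed between sections. At 5 dpi the 5 highest tenocyte thetas (0.225 to 0.132) came with 0.000907 to 0.00809 of smooth muscle, all under the minimum. At 2 dpi the 5 highest (0.445 to 0.238) came with 0.0124, 0.0182, 0.00665, 0.0179 and 0.00616, and at 7 dpi the 5 highest (0.298 to 0.188) came with 0.00134 to 0.0166.

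**Figure D3:**
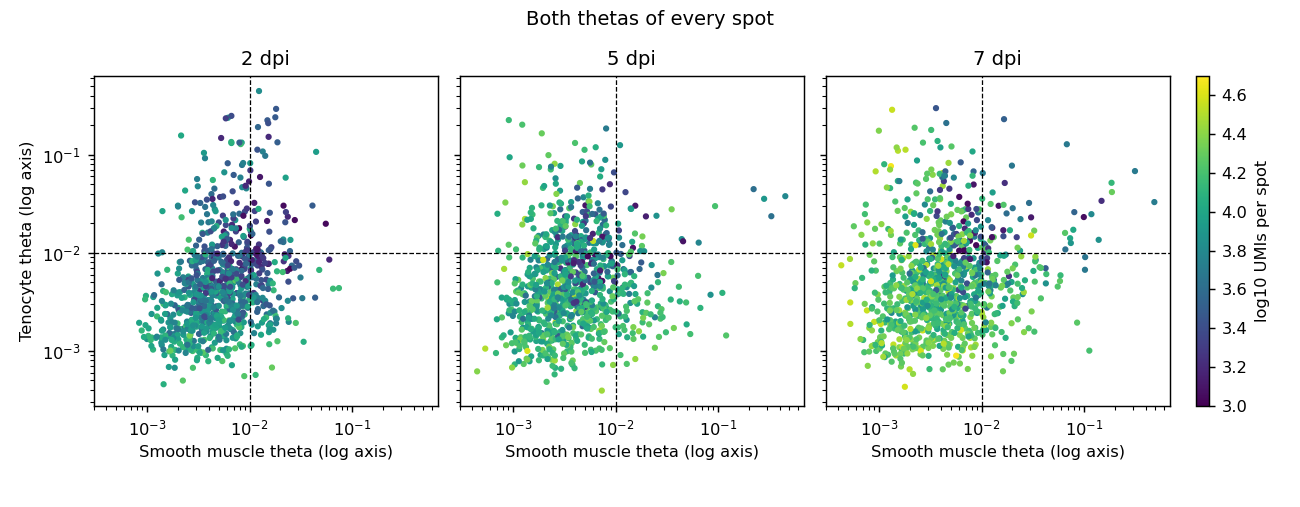
Tenocyte theta (vertical, log axis) against smooth muscle theta (horizontal, log axis) of every spot at 2, 5 and 7 dpi, coloured by log10 UMIs, with the minimum of 0.01 dashed. The 4 spots furthest right at 5 dpi and the 5 furthest right at 7 dpi lie above the tenocyte minimum, and the darker, shallower spots gather near and above both minimums.

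Member spots were shallower than remaining spots, most of all where both types were present. The median UMI count of smooth muscle spots was 4703.5, 13616 and 15906, against 6663, 11592.5 and 15779 in remaining spots. Smooth muscle spots were therefore shallower only at 2 dpi. Tenocyte spots had medians of 3954, 9098.5 and 13086.5 UMIs, and shared spots had 2795, 7197 and 5383, which was 0.419, 0.621 and 0.341 of the remaining spots. The number of genes differed less, with 0.710, 0.872 and 0.710 times as many in shared spots as in remaining spots. In tenocyte spots the median number of genes was 1549.5, 2370 and 3111.5 against 1826, 2353 and 2969.5, so at 5 and 7 dpi fewer UMIs carried about as many genes.

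The mitochondrial percentage was lower in tenocyte spots than in smooth muscle and remaining spots. Tenocyte spots had a median of 21.7% (quartiles 12.7 and 28.8), 13.8% (9.63 and 25.9) and 13.1% (10.4 and 17.7) mitochondrial UMIs. Remaining spots had 31.5% (16.7 and 36.8), 26.6% (13.6 and 33.5) and 19% (13.0 and 28.1). Smooth muscle spots had 27.5%, 27.6% and 20.1%, near the remaining spots at 5 and 7 dpi. The quartile ranges of all these groups overlap. In spots with 5000 to 10000 UMIs the medians at 7 dpi were 13.1% in 31 tenocyte spots, 15.4% in 15 smooth muscle spots and 20.6% in 107 remaining spots. At 5 dpi they were 22.1%, 22.2% and 24.4%, so the 5 dpi gap between tenocyte and remaining spots was much smaller at matched depth.

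Ribosomal protein transcripts, a measure of the cell's protein-making machinery, ran the other way. Their median was 6.89%, 8.34% and 9.46% in tenocyte spots and 4.93%, 5.86% and 7.21% in remaining spots. Smooth muscle spots had 6.23%, 5.76% and 6.64%, above the remaining spots at 2 dpi and just below them at 5 and 7 dpi. Among spots with 5000 to 10000 UMIs they were above in each section, with 5.81% against 4.90%, 7.30% against 6.11% and 7.64% against 6.58%. Shared spots had 7.86%, 10.2% and 9.12%. At 5000 to 10000 UMIs tenocyte spots kept a higher median than remaining spots in each section, with 6.36% against 4.90%, 7.46% against 6.11% and 9.35% against 6.58%.

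**Figure D4:**
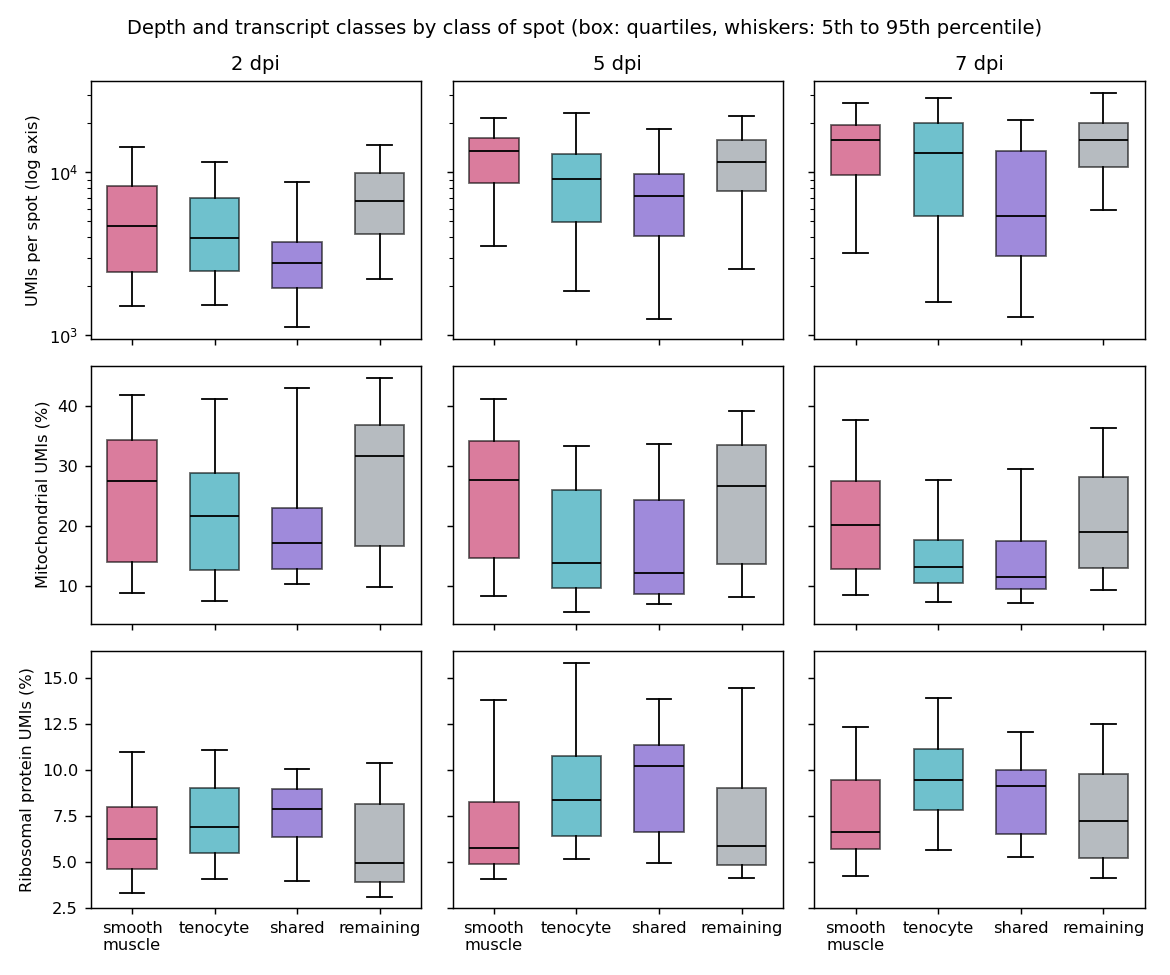
UMIs per spot (log axis), mitochondrial percent and ribosomal protein percent (rows) in smooth muscle, tenocyte, shared and remaining spots at 2, 5 and 7 dpi (columns), with boxes at the quartiles, a line at the median and whiskers from the 5th to the 95th percentile of spots. Shared spots have the lowest median UMI count in each section, and tenocyte spots at 7 dpi have a median of 13.1% mitochondrial UMIs against 19% in remaining spots.

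Hemoglobin transcripts come from red blood cells and mark blood in the tissue. Pooled over spots, they made up 0.0757%, 0.192% and 0.225% of UMIs in smooth muscle spots, against 0.0202%, 0.120% and 0.117% in remaining spots. Tenocyte spots had 0.0305%, 0.108% and 0.0925%. At 2 and 5 dpi the spots richest in smooth muscle had lower values than all other spots, but these were only 4 and 12 spots. Of them 1 and 9 held any hemoglobin UMI, which is too few at 2 dpi to read a direction. Spots with a smooth muscle theta of 0.05 or more had 0.00323%, 0.0440% and 0.197%, against 0.0278%, 0.126% and 0.127% in all other spots of the section, and shared spots had 0.00899%, 0.0802% and 0.225%. Over all member spots the ratio to remaining spots was 2.47, 1.13 and 1.30, and in spots with 5000 to 10000 UMIs it was 8.76, 1.63 and 0.840, so the direction at 7 dpi was not kept at matched depth. At a member minimum of 0.02 the ratio at 2 dpi turned to 0.641. The value of smooth muscle spots at 2 dpi rests on 529 hemoglobin UMIs in 116 spots, whose median spot held none.

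Artery and vein endothelium were higher in smooth muscle spots than in remaining spots in each section. Artery endothelium, the inner layer of the vessels whose wall is thickest in smooth muscle, had a mean theta of 0.00828, 0.00613 and 0.00780 in smooth muscle spots at 2, 5 and 7 dpi, against 0.00562, 0.00341 and 0.00355 in remaining spots. The ratios were 1.47, 1.80 and 2.20. In tenocyte spots they were 1.24, 1.14 and 1.24. Vein endothelium had ratios of 2.02, 1.90 and 2.53 in smooth muscle spots and 1.63, 1.36 and 1.59 in tenocyte spots. Capillary endothelium, which lines vessels without a smooth muscle coat, had ratios nearer to 1, with 1.16, 1.12 and 1.09 in smooth muscle spots and 1.34, 0.841 and 0.909 in tenocyte spots. Stem-like endothelium had 1.59, 1.23 and 1.25 in smooth muscle spots and 1.59, 1.06 and 1.04 in tenocyte spots. At 2 dpi, all members with 5000 to 10000 UMIs had ratios of 1.12 for artery, 1.81 for vein and 1.21 for capillary endothelium. Artery endothelium thus did not exceed capillary endothelium in members of that depth at 2 dpi.

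The share of spots gave further values for the vessel types. At 7 dpi vein endothelium was present at 0.01 or more in 23.4% of spots with smooth muscle (17.1 to 30.8) and in 4.58% of spots without (3.24 to 6.26). Artery endothelium was present in 17.1% (11.6 to 23.9) and 3.59% (2.42 to 5.11), and capillary endothelium in 9.49% (5.41 to 15.2) and 7.05% (5.39 to 9.04). At 5 dpi vein endothelium was present in 14.3% and 4.05%, artery endothelium in 13.4% and 1.97%, and capillary endothelium in 10.1% and 7.62%. At 2 dpi vein endothelium was present in 33.1% and 11.3%, artery endothelium in 28.3% and 12.6%, and capillary endothelium in 26.5% (20.0 to 33.9) and 15.9% (13.2 to 18.8). The observed over expected number of spots with smooth muscle and vein endothelium was 2.14, 2.67 and 3.06, and 1.67, 2.62 and 2.63 when expected within UMI groups. For artery endothelium it was 1.82 at 2 dpi and 2.95 at 7 dpi, and 1.44 and 2.37 within UMI groups. Dendritic cells, an immune type, had 1.80 and 1.26, and 1.44 and 1.29 within UMI groups. The artery value at 2 dpi was thus not particular to vessel types. With capillary endothelium, tenocytes had 1.80 at 2 dpi and 0.414 and 0.566 at 5 and 7 dpi, where 3.29% (1.33 to 6.65) and 4.22% (2.04 to 7.62) of spots with tenocytes held it, against 9.31% (7.28 to 11.7) and 8.50% (6.58 to 10.8) of spots without.

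In the 22 spots with a smooth muscle theta of 0.05 or more at 7 dpi, the mean theta of artery endothelium was 0.0252 against 0.00421 in all other spots of the section, and that of vein endothelium was 0.0251 against 0.00407. The medians lay closer, with 0.00568 against 0.00302 for artery and 0.0111 against 0.00243 for vein endothelium, and 1 spot held an artery theta of 0.133. The capillary theta was 0.00345 against 0.00483. At 5 dpi the 12 such spots had an artery theta of 0.0168 against 0.00377, and a vein theta of 0.00473 against 0.00376. Their median artery theta was 0.00749 against 0.00307, and 1 spot held 0.0891. These spots were chosen by the size of their smooth muscle theta after the values were seen.

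At the member minimum, FAPs had higher means in tenocyte spots than in smooth muscle spots, except adipogenic FAPs at 7 dpi. At a minimum of 0.05 this order was not kept throughout, as given below. Stem FAPs, the least committed of the 3 FAP types, had ratios to remaining spots of 1.47, 1.93 and 2.48 in tenocyte spots at 2, 5 and 7 dpi and of 1.04, 1.14 and 1.18 in smooth muscle spots. Their mean theta in tenocyte spots was 0.0153, 0.0118 and 0.0186. Adipogenic FAPs, named for their fat-forming program, had 2.06, 2.14 and 1.71 in tenocyte spots and 1.21, 1.55 and 1.74 in smooth muscle spots, with little between both kinds of spot at 7 dpi. Pro-remodeling FAPs had 1.70, 1.41 and 1.23 in tenocyte spots and 1.21, 1.09 and 1.17 in smooth muscle spots. Their own mean in tenocyte spots was 0.0195 at 2 dpi and 0.0619 at 7 dpi, while in remaining spots it was 0.0115 and 0.0503. The higher stem FAP mean was not kept throughout at a tenocyte theta of 0.05 or more. In those spots it was 0.00965, 0.00809 and 0.0176 at 2, 5 and 7 dpi, against 0.0113, 0.00745 and 0.00997 in all other spots. By mean the direction thus turned at 2 dpi and the values were close at 5 dpi. By median it did not turn at 2 dpi, with 0.00719 against 0.00638.

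By share of spots, stem FAPs were present in 50.0% of spots with tenocytes at 2 dpi (42.0 to 58.0) and 31.7% of spots without (28.2 to 35.3), in 38.0% and 16.0% at 5 dpi, and in 45.1% (38.7 to 51.7) and 23.0% (20.0 to 26.3) at 7 dpi. With smooth muscle the shares were 42.8% (35.1 to 50.7) and 33.2% (29.7 to 36.8) at 2 dpi, and they lay closer at 5 dpi, with 21.8% (14.8 to 30.4) and 20.9% (18.1 to 23.8), and at 7 dpi, with 30.4% (23.3 to 38.2) and 28.1% (25 to 31.3). The 12 spots with the most smooth muscle at 5 dpi had a mean adipogenic FAP theta of 0.0716 against 0.0112 in all other spots. In the 4 highest it was 0.123, 0.0366, 0.179 and 0.0903. Adipogenic FAP means at a theta of 0.05 or more were 0.0214, 0.0716 and 0.0403 for smooth muscle and 0.0219, 0.0452 and 0.0255 for tenocytes. Pro-remodeling FAP means there were 0.0348, 0.0525 and 0.0548 for smooth muscle and 0.0238, 0.0353 and 0.0667 for tenocytes. By median, pro-remodeling FAPs at 5 dpi were lower for smooth muscle, with 0.00816 against 0.0292.

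Neural theta was uneven among member spots. Neural cells belong to the nerves of the muscle. Their mean theta was 0.00826, 0.00403 and 0.00367 in smooth muscle spots at 2, 5 and 7 dpi, 0.00698, 0.00706 and 0.0208 in tenocyte spots, and 0.00921, 0.00613 and 0.0524 in shared spots, against 0.00568, 0.00442 and 0.00877 in remaining spots. At 7 dpi shared spots thus had 5.97 times and smooth muscle spots 0.419 times the mean of remaining spots. The medians at 7 dpi were much closer, with 0.00472 in shared spots and 0.00126 in both smooth muscle and remaining spots, so the means rest on few spots. Neural theta reached 0.01 in 16.5% of spots with tenocytes at 7 dpi (12.0 to 21.8) and in 5.08% of spots without (3.60 to 6.93). For smooth muscle, shared spots included, those shares were 16.5% (11 to 23.2) and 6.19% (4.63 to 8.08). The observed over expected ratio was 2.09 for either type over all spots, and within UMI groups 1.17 for tenocytes and 1.33 for smooth muscle.

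Myonuclei are the nuclei of myofibers. Type IIb, the fastest fiber type, had a mean theta of 0.578, 0.527 and 0.519 in smooth muscle spots, 0.489, 0.526 and 0.490 in tenocyte spots and 0.363, 0.456 and 0.389 in shared spots, against 0.681, 0.644 and 0.620 in remaining spots. It was the single companion that was lower in all 3 classes of member spots in all 3 sections. Type IIx, a fast fiber type between IIb and the more oxidative fibers, had mean thetas above those of remaining spots in smooth muscle spots and, at the later times, below them in tenocyte spots. In smooth muscle spots its mean was 0.0558, 0.202 and 0.149, and in tenocyte spots 0.0725, 0.0819 and 0.0572, against 0.0461, 0.114 and 0.0913 in remaining spots. The ratios were 1.21, 1.78 and 1.63 in smooth muscle spots and 1.57, 0.719 and 0.626 in tenocyte spots. In spots with 5000 to 10000 UMIs the tenocyte ratios were 2.41, 1.45 and 0.782, so the lower value at 5 dpi was not seen at matched depth. At 5 dpi type IIx was also present at 0.01 or more in a larger share of spots with tenocytes, 78.4% (72.3 to 83.7) against 63.9% (60.3 to 67.4) of spots without. Among the 4, 12 and 22 spots with a smooth muscle theta of 0.05 or more, mean type IIx theta was 0.115, 0.0763 and 0.104. In all other spots it was 0.0536, 0.116 and 0.0900, so at 5 dpi the direction turned. At 7 dpi it turned by median only, with 0.0292 against 0.0399.

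Fusing myocytes, the cells that build new myofibers, were higher in tenocyte spots in each section, with means of 0.0413, 0.155 and 0.154 against 0.0261, 0.106 and 0.115 in remaining spots. In smooth muscle spots they were 0.0344, 0.0865 and 0.0988, below the remaining spots at 5 and 7 dpi. In spots with 5000 to 10000 UMIs the smooth muscle ratios at 5 and 7 dpi were 1.21 and 1.08. The 27 spots with a tenocyte theta of 0.05 or more at 5 dpi had a mean fusing myocyte theta of 0.203 against 0.112 and a type IIx theta of 0.0334 against 0.118. At 2 dpi the 38 such spots had a type IIx theta of 0.138 against 0.0499, and at 7 dpi the 46 had 0.0389 against 0.0929. The 27 spots at 5 dpi also had a median of 6.94% mitochondrial UMIs against 24.3%, 11.1% ribosomal protein UMIs against 6.31% and 3446 genes against 2367, with 11614 UMIs against 11191.

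**Figure D5:**
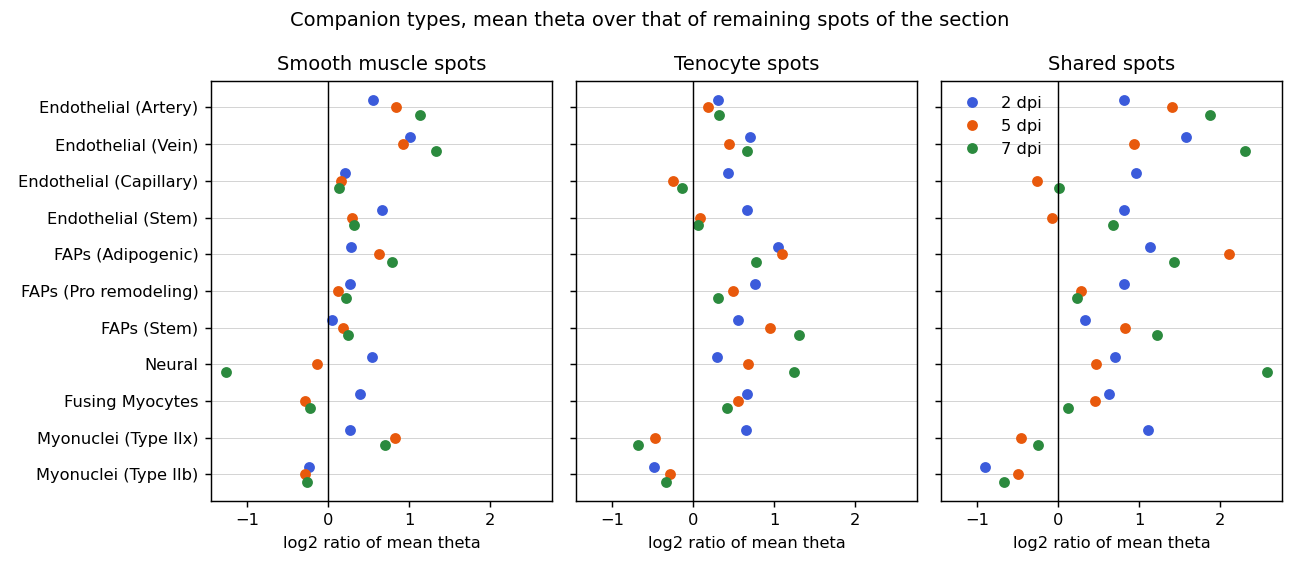
log2 ratio of the mean theta of each companion type in smooth muscle, tenocyte and shared spots (panels) to its mean in remaining spots of the same section, with 1 point per section and no replicate. In each section vein endothelium lies furthest right in smooth muscle spots, while in tenocyte spots adipogenic FAPs (2 and 5 dpi) or stem FAPs (7 dpi) do, and type IIb myonuclei lie left of 0 throughout.

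Type IIb myonuclei were lower in member spots and all thetas of a spot sum to 1, so the companions were also compared without myonuclei. Of the 25 other types, 24, 23 and 22 had a higher mean in members than in remaining spots at 2, 5 and 7 dpi. When the 2 myonuclei types and the 2 types of the rule were removed and the rest rescaled, 11, 6 and 13 of 23 did. On that scale artery endothelium in smooth muscle spots had ratios of 0.934, 1.84 and 1.43 and vein endothelium 1.21, 1.53 and 1.79, while in tenocyte spots artery endothelium had 0.542, 0.555 and 0.611. Stem FAPs in tenocyte spots had 1.02, 1.02 and 1.33 and adipogenic FAPs 1.10, 1.11 and 0.856. Artery and vein endothelium thus stayed above 1 in smooth muscle spots at 5 and 7 dpi, and the FAP ratios in tenocyte spots came close to 1 or below it, apart from stem FAPs at 7 dpi.

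Over all spots of a section, Spearman's rho of smooth muscle theta was 0.40, 0.40 and 0.33 with artery endothelium and 0.42, 0.29 and 0.29 with vein endothelium at 2, 5 and 7 dpi (859, 933 and 966 spots). These spots share a library, a depth gradient and the sum of thetas. Given the UMI count, the partial values were 0.30, 0.38 and 0.25 with artery and 0.31, 0.26 and 0.21 with vein endothelium. After rescaling without myonuclei rho was 0.67, 0.69 and 0.59 with artery endothelium and 0.64, 0.60 and 0.41 with capillary endothelium. It was 0.51, 0.52 and 0.49 with neural cells and 0.31, 0.58 and 0.56 with quiescent muscle stem cells. The higher values were thus not limited to the larger vessels or to vessel types. With fusing myocytes rho on that scale was -0.08, -0.62 and -0.48. Tenocyte theta had a rho of 0.48, 0.42 and 0.29 with stem FAPs, 0.55, 0.43 and 0.22 with adipogenic FAPs and 0.50, 0.31 and 0.20 with pro-remodeling FAPs. Values this high were not limited to FAPs, with 0.55, 0.56 and 0.45 for M1 macrophages and 0.56, 0.44 and 0.41 for T cells. With capillary endothelium tenocytes had 0.35, -0.03 and -0.0006. The partial value of tenocytes with adipogenic FAPs at 7 dpi was 0.10. Without myonuclei rho with pro-remodeling FAPs was 0.25, -0.29 and -0.27, so the direction turned at 5 and 7 dpi. Between the 2 types rho was 0.36, 0.17 and 0.20, and given the UMI count 0.24, 0.13 and 0.12.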

How the data were processed

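Spatial RNA sequencing values of 3 sections were used, assigned to 2, 5 and 7 dpi by the labelled treatment. According to its methods, the authors built Visium libraries, aligned reads to mm10 with Space Ranger (version 1.0 in the submitters' processing notes), selected spots over tissue by hand and estimated thetas with BayesPrism from a single-cell reference. The authors deposited UMI and gene counts per spot, not normalized, and mitochondrial, ribosomal protein and hemoglobin transcripts in percent of all UMIs of a spot. The deposited thetas are fractions that sum to 1 over 27 types. The methods describe fewer types, and which reference gave these thetas is not known. Depth ranged from 1003 to 48442 UMIs per spot, and no deposited spot was left out. The lowest values of the 3 sections were 1003, 1088 and 1059 UMIs and 512, 502 and 504 genes. Whether shallower spots were removed before deposit is not known. The arrays repeat their barcodes: 505 barcodes occurred in all 3 sections, as different places.

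Means, medians, shares, observed over expected spots and rank correlations were computed per section with Python 3.11.15, numpy 2.4.6, pandas 2.3.3 and scipy 1.17.1, and drawn with matplotlib 3.10.9. Expected numbers under 5 gave no ratio. Counting of shared spots was tested on 100 simulated sections. With 1 section per time point no test between times was made. The named types were the 2 types and 11 companions fixed by a rule, plus any type with a mean theta of 0.01 or more in member spots and a 2-fold difference from other spots, which added none. The members, the lists and the alternatives were chosen with earlier results of these data known. The division of members into smooth muscle, tenocyte and shared spots, the spots of 0.05 or more, the 5 UMI groups for shares, co-occurrence with companions and pooled hemoglobin were chosen after seeing the data. Gene-level data and image positions were not used here.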

Additional observations from a re-analysis of the deposited data

Results flagged for a closer look

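In 3 cases a companion's mean theta was at least 1.25-fold higher than in remaining spots in 1 section and lower by the same factor or more in another. Each section is 1 sample, so the difference between sections was not tested. Type IIx myonuclei in tenocyte spots had ratios of 1.57, 0.719 and 0.626 in the order 2, 5 and 7 dpi. In shared spots type IIx myonuclei had 2.16, 0.726 and 0.842. Neural theta in smooth muscle spots had ratios of 1.45, 0.910 and 0.419. The neural medians of smooth muscle and remaining spots at 7 dpi were nearly the same. With shared spots included, neural cells were present there in a larger share of spots with smooth muscle than without. No rule for a sample that stands apart could be applied with 1 section per time point.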

How the results depend on the processing

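Of 543 alternative values, 336 stayed within the limits set for the value, a factor of 1.25 for ratios, 0.1 for correlations, 1.5-fold for numbers of types and the bounds of both intervals for ratios of shares. The causes of the other shifts were not tested. Depth limits what a theta near 0.01 can show, since the shallowest spots held 1003 to 1088 UMIs. No paired analysis was possible because each time point had 1 section.

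For the ratio of mean theta to 2 dpi, the median gave 0.709 (5 dpi) and 0.789 (7 dpi) for smooth muscle and 1.07 (5 dpi) for tenocytes, spots with 5000 to 10000 UMIs gave 1.42, 1.89 and 1.05, and removal of myonuclei gave 0.823 for smooth muscle at 7 dpi. The mean of smooth muscle thus has no order of sections that holds under every summary. For the ratio of the share of spots to 2 dpi, a minimum of 0.02 gave 0.944 and 1.40 for smooth muscle, a minimum of 0.05 gave 2.76 (reversed) and 4.89 for smooth muscle and 0.654 for tenocytes at 5 dpi, and counting at most 10 types a spot gave 0.983 and 1.23 for smooth muscle and 1.73 and 1.80 for tenocytes. Spots with 5000 to 10000 UMIs gave 1.17 for smooth muscle at 7 dpi and 2.12 and 1.97 for tenocytes. Without myonuclei the tenocyte ratio at 7 dpi was 0.948 (reversed). Observed over expected spots with both types were 1.29 within UMI groups and 1.11 with at most 10 types at 2 dpi, 1.64 at 5000 to 10000 UMIs at 5 dpi and 1.72 at a minimum of 0.02 at 7 dpi. A minimum of 0.05, and of 0.02 at 2 and 5 dpi, left fewer than 5 expected spots and gave no ratio.

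Without myonuclei and the 2 types, the number of types higher in members was 11, 6 and 13. On that scale the member ratio turned for adipogenic (0.939) and pro-remodeling FAPs (0.985), artery (0.714), capillary (0.613) and stem-like endothelium (0.870) and neural cells (0.751) at 2 dpi, for stem FAPs (0.989), artery (0.966) and vein endothelium (0.979) and neural cells (0.843) at 5 dpi and for adipogenic FAPs (0.999) at 7 dpi. A minimum of 0.02 turned the neural ratio at 5 dpi (0.861). For members over other spots, the mean UMI ratio at 2 dpi was 0.715, and the mitochondrial ratio at 5 dpi was 0.474 at a minimum of 0.02, 0.803 by the mean and 0.804 at 5000 to 10000 UMIs. The hemoglobin ratio was 0.641 at a minimum of 0.02 (reversed) and 8.76 at 5000 to 10000 UMIs at 2 dpi, 1.63 at 5000 to 10000 UMIs at 5 dpi, and 1.81 by the mean and 0.840 (reversed) at 5000 to 10000 UMIs at 7 dpi.

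Of the correlations with a size of 0.1 or more, Pearson's r turned those of smooth muscle at 5 dpi with capillary (-0.0386) and stem-like endothelium (-0.0234) and neural cells (-0.000854), and that of tenocytes with stem FAPs at 2 dpi (-0.0129). With the weaker correlation of fusing myocytes, which also turned (0.05 to -0.03), 6 of 11 companions stayed above 0 with smooth muscle at 5 dpi. Without myonuclei, rho turned for fusing myocytes with smooth muscle (-0.0766) and tenocytes (-0.0831) at 2 dpi, and for tenocytes with pro-remodeling FAPs (-0.29 and -0.27) and fusing myocytes (-0.41 and -0.32) at 5 and 7 dpi. Weaker correlations of smooth muscle moved far on that scale, to -0.62 and -0.48 with fusing myocytes and to -0.30 and -0.25 with pro-remodeling FAPs.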

Other observations

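The immune types were not among the companions and were looked at after the values were seen. Macrophages, which clear debris and then support rebuilding, and the monocytes they come from, were met more often in spots with tenocytes than in spots without. M1 macrophages were present at 0.01 or more in 60.8% (52.7 to 68.4) and 36.7% (33.1 to 40.4) at 2 dpi, in 19.7% (14.6 to 25.7) and 5.97% (4.36 to 7.96) at 5 dpi and in 18.1% (13.5 to 23.7) and 3.98% (2.68 to 5.66) at 7 dpi. The observed over expected ratios were 1.48, 2.16 and 2.43, and within UMI groups 1.14, 1.87 and 1.91. Inflammatory monocytes had 1.74, 2.19 and 2.36, and within UMI groups 1.40, 2.09 and 1.77. Type IIb myonuclei theta was lower in spots with tenocytes, and without myonuclei these relations were weaker or turned. Spearman's rho of tenocytes with M1 macrophages was 0.55, 0.56 and 0.45 as deposited and -0.08, 0.33 and 0.28 without myonuclei. With inflammatory monocytes it was 0.52, 0.55 and 0.47 as deposited and 0.04, 0.35 and 0.28 without. With M2 macrophages high in Cx3cr1 it was 0.56, 0.53 and 0.32 as deposited and 0.18, 0.03 and -0.18 without. It also turned at 2 dpi for Cxcl10+ (-0.14) and patrolling monocytes (-0.53). With smooth muscle M1 macrophages had 1.38, 0.922 and 1.10. At 7 dpi the M2 macrophages high in Cx3cr1 were present in 56.1% (49.5 to 62.5) of spots with tenocytes against 35.8% (32.3 to 39.4) of spots without. For smooth muscle those shares were 32.3% (25.1 to 40.2) and 42.5% (39.0 to 45.9).

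Quiescent muscle stem cells, which lie on myofibers near small vessels, were present at 7 dpi in 22.2% (15.9 to 29.4) of spots with smooth muscle and 6.68% (5.06 to 8.63) of spots without, with a ratio of 2.40, or 1.93 within UMI groups. With tenocytes the ratio at 7 dpi was 2.11, or 1.57 within UMI groups. The ratios were lower at 2 and 5 dpi. With smooth muscle they were 1.61 and 1.76, or 1.31 and 1.77 within UMI groups. With tenocytes they were 1.28 and 1.59, or 0.999 and 1.33 within UMI groups. These stem cells were not among the companions.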
